A study of Mus musculus with 2 samples.

Results

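The genes described here are those of the ID proteins and of ligands, a receptor and feedback inhibitors of BMP and TGF-beta signalling: Id1, Id2, Id3, Id4, Smad6, Smad7, Bmp4, Tgfb1 and Tgfbr2. They were chosen by symbol, 9 of the 54680 loci of the deposited gene table, with earlier results of the same data known, so their values are a description. CT26 is a mouse colon cancer line, and total RNA was sequenced after 6 days of culture in RPMI 1640 with serum. The knockdown library came from CT26 cells infected with a lentivirus carrying a short hairpin RNA against Setdb1 (CT26shSetdb1), a histone H3 lysine 9 methyltransferase gene, and the labels describe these cells as differentiated. The control library came from CT26 cells, labelled wild type, infected with a lentivirus carrying the empty knockdown vector (CT26shCtrl). Each group had 1 library, so no difference below has a replicate check, and the values compare these 2 libraries and not the conditions.

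BMP and TGF-beta ligands bind pairs of type I and type II serine/threonine kinase receptors, which phosphorylate receptor-regulated SMAD proteins. These join SMAD4, enter the nucleus and act on target genes. Id1, Id2 and Id3 are widely used readouts of BMP signalling. ID proteins have a helix-loop-helix domain but no DNA-binding basic region, and they hold E proteins and other basic helix-loop-helix (bHLH) factors away from DNA, which is known to delay differentiation in many cell types. Smad6 and Smad7 encode inhibitory SMADs, which are induced by the pathways and block them. In the intestine, BMP signalling is known to restrain stem cells and TGF-beta signalling to restrain growth of the epithelium.

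Id1, Id2, Id3 and Tgfb1 were higher in CT26shSetdb1, with log2 ratios of 2.53, 1.97, 2.68 and 1.37. Tgfbr2, Smad6 and Smad7 lay near their control level, with log2 ratios of 0.17, 0.17 and -0.03. Id4 and Bmp4 had 0 reads in both libraries. These ratios are log2((FPKM + 1) ratios), knockdown over control, and the added 1 understates the change of low genes. FPKM is the number of fragments per kilobase of gene model, scaled by 1 depth shared by both libraries. The log2 ratios therefore keep the difference in read totals, a factor of 1.03, which the read ratios below remove. Of the 9 genes, 7 reached 1 FPKM in at least 1 library. Of these, 4 were at least 2-fold higher, against 6.81% of all 10671 genes at that level, and 0 were at least 2-fold lower, against 4.85%. The set was chosen with this comparison in view, so nothing is read from that difference. The median log2 ratio of all 10671 genes was -0.00039, and the quartiles were -0.36 and 0.38. Among them the ratios of Id3, Id1, Id2 and Tgfb1 stood at percentiles 99.6, 99.5, 98.8 and 96.8, and those of Tgfbr2, Smad6 and Smad7 at 62.4, 62.2 and 48.0.

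**Figure D1:**
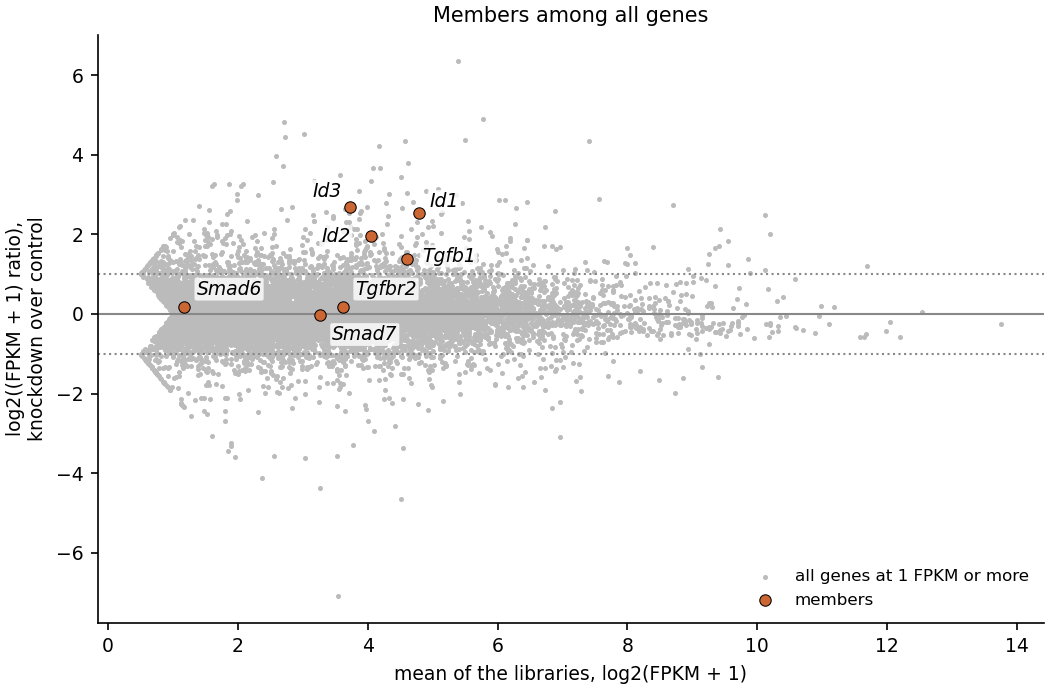
Each grey point is 1 of the 10671 genes that reached 1 FPKM in either library. The x axis is the mean of log2(FPKM + 1) over the control and knockdown libraries, the y axis is the log2((FPKM + 1) ratio), knockdown over control, and dotted lines mark 2-fold. Id1, Id2, Id3 and Tgfb1 lie above the upper line, and Smad6, Smad7 and Tgfbr2 lie near 0.

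The control library held 18421604 reads and CT26shSetdb1 19045830. Setdb1 itself had 1340 reads in CT26shCtrl and 317 in CT26shSetdb1. Of 11 colon epithelial markers, 3 reached 1 FPKM (Krt18, Krt19 and Krt20), while Epcam, Cdh1 and Cdx1 had 0 reads in both libraries, so keratin genes were the only ones of these markers at that level. The summed level of those 11 markers was 43.8 FPKM in CT26shCtrl and 128 FPKM in CT26shSetdb1. The 8 fibroblast and mesenchymal markers, of which 6 reached 1 FPKM and Thy1 had 0 reads in both libraries, summed to 940 and 970 FPKM. Most of that sum was Vim, at 752 FPKM in CT26shCtrl and 835 FPKM in CT26shSetdb1, and the other markers did not all follow it. The reads of the collagen genes Col1a1, Col1a2 and Col3a1 had ratios of 0.722, 0.652 and 0.320, and those of Pdgfra, at 0.501 and 1.77 FPKM, a ratio of 3.43. Of 6 leukocyte markers 1 reached 1 FPKM, Cd68, which took the sum from 10.4 to 100.2 FPKM, while Cd3e, Adgre1 and Itgam had 0 reads and Ptprc had 0 in CT26shCtrl and 4 in CT26shSetdb1. The 4 endothelial markers had 1 read in all, in CT26shCtrl. The part of these differences in the results below was not tested, and in bulk RNA fewer cells of a kind and less RNA per cell cannot be told apart.

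Among the ligands, Tgfb1 encodes TGF-beta 1, which is secreted in a latent form. The gene (ENSMUSG00000002603) lies on the plus strand of chromosome 7, from 25687002 to 25705077 in GRCm38, with 7 exons in its first-numbered GENCODE M21 transcript. Its level was 14.2 FPKM (1337 reads) in CT26shCtrl and 38.2 FPKM (3604 reads) in CT26shSetdb1. The read ratio, each library taken relative to its own total, was 2.61, with a 95% exact binomial (Clopper-Pearson) interval of 2.45 to 2.78. This interval, like the others below, covers counting error only: libraries without molecular identifiers can hold PCR copies of 1 molecule. Tgfb3, which encodes a TGF-beta isoform, lay near its control level, at 6.42 FPKM (407 reads) and 6.12 FPKM (388 reads). Tgfb2 had 0 reads in both libraries. Tgfb1 therefore made up 68.8% of the summed level of the 3 isoforms in CT26shCtrl and 86.2% in CT26shSetdb1. No annotated gene overlapped Tgfb1 in the deposited table.

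Bmp4 (ENSMUSG00000021835, minus strand of chromosome 14, 46383520 to 46390669) encodes a BMP ligand. It had 0 reads in either library, which at a limit of 3 reads allows a level of up to 0.0712 FPKM in each. Of the 13 BMP ligand genes listed for this comparison, 9 had 0 reads in both libraries and 1 reached 1 FPKM. That gene was Bmp2, a ligand of the same subgroup as Bmp4, at 0.736 FPKM (49 reads) in CT26shCtrl and 2.79 FPKM (186 reads) in CT26shSetdb1. Its log2 ratio was 1.13 and its read ratio 3.67 (2.67 to 5.14). Among the 9 TGF-beta and activin ligand genes, 5 reached 1 FPKM. Of these, 1 was at least 2-fold higher (Tgfb1) and 0 were lower, beside 6.81% and 4.85% of all genes. Their median log2 ratio was 0.21, and Inhba, which encodes an activin subunit, had the lowest at -0.10. Gdf11, of the same list, was low, at 0.421 and 1.31 FPKM (32 and 100 reads). Its read ratio was 3.02 (2.01 to 4.65), so it stayed within 2-fold only on the scale with the added 1.

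Tgfbr2 (ENSMUSG00000032440, minus strand of chromosome 9, 116084293 to 116175360) encodes the type II receptor that binds TGF-beta. Its level was 10.5 FPKM (1615 reads) in CT26shCtrl and 12.0 FPKM (1842 reads) in CT26shSetdb1. The read ratio was 1.10 (1.03 to 1.18). Its lower end is above 1, but the spread between cultures is not known. The type I receptor Tgfbr1 was below 1 FPKM in both libraries, with 62 reads in CT26shCtrl and 77 in CT26shSetdb1.

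Some receptor genes differed by more than Tgfbr2. Of 15 receptor and co-receptor genes, 11 reached 1 FPKM, of which 3 were at least 2-fold higher and 0 lower, and the median log2 ratio was 0.33. Acvrl1, which encodes the type I receptor ALK1, was at 5.53 FPKM (442 reads) in CT26shCtrl and 27.9 FPKM (2232 reads) in CT26shSetdb1, a read ratio of 4.88 (4.41 to 5.42). Acvr1b, the type I receptor gene for activin, had 454 and 1205 reads and a log2 ratio of 1.26. Rgmb, which encodes a BMP co-receptor, had 933 and 2774 reads and a log2 ratio of 1.44. The lowest ratio was that of the BMP type I receptor gene Bmpr1a, at 2.37 and 0.908 FPKM (282 and 108 reads), where the log2 ratio was -0.82 and the ratio of reads 0.370 (0.294 to 0.464). Acvr2b went the other way, at 0.870 and 2.11 FPKM (64 and 155 reads), with a read ratio of 2.34 (1.74 to 3.19). Bmpr1a and Acvr2b stayed within 2-fold only on the scale with the added 1. Of 6 genes of signal-carrying SMADs, 5 reached 1 FPKM and none passed 2-fold in either direction, beside 11.7% of all genes. The log2 ratios of these SMADs ran from -0.32 for Smad5 to 0.23 for Smad1. Their median of 0.05 was -0.0116 when the libraries were scaled to the same upper quartile and -0.0497 with the filter at 5 FPKM.

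Smad6 (ENSMUSG00000036867, minus strand of chromosome 9, 63953076 to 64022059) encodes the inhibitory SMAD that acts mainly on BMP signalling. It was low, at 1.12 FPKM (67 reads) in CT26shCtrl and 1.38 FPKM (83 reads) in CT26shSetdb1. The read ratio of 1.20 had a counting interval of 0.858 to 1.68, so a difference was not detectable at this depth. Smad7 (ENSMUSG00000025880, plus strand of chromosome 18, 75367529 to 75395935) encodes the inhibitory SMAD that acts on both branches. It was at 8.66 FPKM (733 reads) in CT26shCtrl and 8.48 FPKM (718 reads) in CT26shSetdb1, with a read ratio of 0.947 (0.854 to 1.05). Both intervals end below the 2-fold mark. Together both genes had 800 reads in CT26shCtrl and 801 in CT26shSetdb1.

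The other intracellular inhibitors resembled them in staying within 2-fold. Of 13 genes of this kind, Smad6 and Smad7 included, 11 reached 1 FPKM, none passed 2-fold in either direction, and the median log2 ratio was -0.18. Smurf1, which encodes a ubiquitin ligase that acts on SMADs and receptors, had the highest ratio at 0.69, from 4908 to 8016 reads. Pmepa1, a TGF-beta-induced inhibitor gene, had the lowest at -0.74, from 639 to 347 reads, a read ratio of 0.525 (0.460 to 0.600). Skil, which encodes the SMAD corepressor SnoN, went from 279 to 107 reads, a read ratio of 0.371 (0.294 to 0.465). Ldlrad4, which encodes an inhibitor of TGF-beta signalling, went the other way, from 38 to 84 reads, at a ratio of 2.14 (1.44 to 3.22). At 1.54 and 0.589 FPKM for Skil and 0.814 and 1.80 FPKM for Ldlrad4, these 2 genes stayed within 2-fold only on the scale with the added 1.

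Of 12 extracellular antagonist genes, 6 reached 1 FPKM, 2 were at least 2-fold higher and 1 lower by as much, with a median log2 ratio of 0.25. Nbl1, which encodes a BMP-binding antagonist, had 18 reads in CT26shCtrl and 167 in CT26shSetdb1, a read ratio of 8.97 (5.51 to 15.5). Fstl3, an activin-binding follistatin-like gene, went from 4.78 to 14.4 FPKM, with a log2 ratio of 1.41. Bmper, which encodes a BMP-binding protein, went from 6.48 to 2.71 FPKM, with a log2 ratio of -1.01. Nog and Cer1 had 0 reads in both libraries. Among 10 genes that bind or release latent TGF-beta, 6 reached 1 FPKM, 0 were at least 2-fold higher and 2 were lower by as much, with a median log2 ratio of -0.21. The lower genes were Thbs1, which encodes the TGF-beta activator thrombospondin 1, from 1366 to 319 reads (log2 ratio -1.77), and Ltbp4, which encodes a latent TGF-beta binding protein, from 8417 to 3654 reads (log2 ratio -1.18). Ltbp3, of the same family, had the highest ratio of the list, 0.56, from 74.4 to 110.4 FPKM.

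The ID genes are compact. Id1 (ENSMUSG00000042745) lies on chromosome 2 (plus strand, 152736251 to 152737410) and Id2 (ENSMUSG00000020644) on chromosome 12 (minus strand, 25093799 to 25097140). Id3 (ENSMUSG00000007872) lies on chromosome 4 (plus strand, 136143497 to 136145755) and Id4 (ENSMUSG00000021379) on chromosome 13 (plus strand, 48261228 to 48266026). No annotated gene overlapped Id1, Id2 or Id3, and the annotated genes that overlapped Id4 had 0 reads. Because reads of close relatives can be assigned to the wrong gene, the messenger sequences of the 4 genes were compared. The first-numbered GENCODE M21 transcript of each gene on GRCm38 was used, ungapped and in frame. Chosen were the 120 coding bases of Id1 with the most matches summed over the other ID genes, and the stretch of each that matched them best. Pairs without Id1 may therefore be more alike elsewhere. The stretches are shown 5′ to 3′, with capitals at the bases that are identical in all 4 genes:
Id1: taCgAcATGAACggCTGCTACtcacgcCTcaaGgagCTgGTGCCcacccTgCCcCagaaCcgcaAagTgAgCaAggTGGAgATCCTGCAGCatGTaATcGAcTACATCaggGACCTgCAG
Id2: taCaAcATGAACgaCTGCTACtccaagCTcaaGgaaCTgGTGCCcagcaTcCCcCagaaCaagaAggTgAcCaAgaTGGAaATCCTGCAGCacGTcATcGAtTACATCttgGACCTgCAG
Id3: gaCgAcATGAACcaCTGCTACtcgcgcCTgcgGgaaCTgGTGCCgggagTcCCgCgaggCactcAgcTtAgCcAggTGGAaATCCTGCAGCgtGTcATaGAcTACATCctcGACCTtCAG
Id4: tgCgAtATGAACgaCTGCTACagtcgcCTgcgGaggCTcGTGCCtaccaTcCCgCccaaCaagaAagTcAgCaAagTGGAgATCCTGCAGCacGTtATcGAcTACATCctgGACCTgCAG
The stretches start at coding base 178 in Id1, 109 in Id2, 124 in Id3 and 196 in Id4. Of the 120 bases, 69 (57.5%) were identical in all 4 genes, and pairs shared from 70.8% (Id1 with Id3, and Id3 with Id4) to 81.7% (Id1 with Id2). The longest run of bases shared exactly by any pair of whole transcripts was 19 bases, between Id2 and Id3.

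Id1 was at 10.5 FPKM (229 reads) in CT26shCtrl and 65.8 FPKM (1429 reads) in CT26shSetdb1. Its read ratio was 6.04 (counting interval 5.25 to 6.97). In CT26shCtrl Id1 stood at percentile 58.7 of the 10671 genes by level, and in CT26shSetdb1 at percentile 90.9.

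Id2 was at 7.40 FPKM (338 reads) in CT26shCtrl and 31.8 FPKM (1454 reads) in CT26shSetdb1. Its read ratio was 4.16 (3.69 to 4.70). The deposited annotation gives 1 other locus, Gm6175, the same protein match as Id2, and that locus had 0 reads in both libraries.

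Id3 was at 4.23 FPKM (142 reads) in CT26shCtrl, the lowest of the 3 ID genes with reads, and at 32.6 FPKM (1095 reads) in CT26shSetdb1. Its read ratio was 7.46 (6.26 to 8.95). The intervals of Id1 and Id3 overlap each other, and that of Id2 lies below both. All of them lie above the interval of Tgfb1.

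Id4 had 0 reads in both libraries, which at a limit of 3 reads allows up to 0.0416 FPKM in each. All reads of the family thus came from 3 of its 4 genes. Their reads summed to 709 in CT26shCtrl and 3978 in CT26shSetdb1, a read ratio of 5.43 (5.01 to 5.89). Id1 gave 47.5% of the summed FPKM in CT26shCtrl and 50.5% in CT26shSetdb1, Id2 33.4% and 24.4%, and Id3 19.1% and 25.1%.

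**Figure D2:**
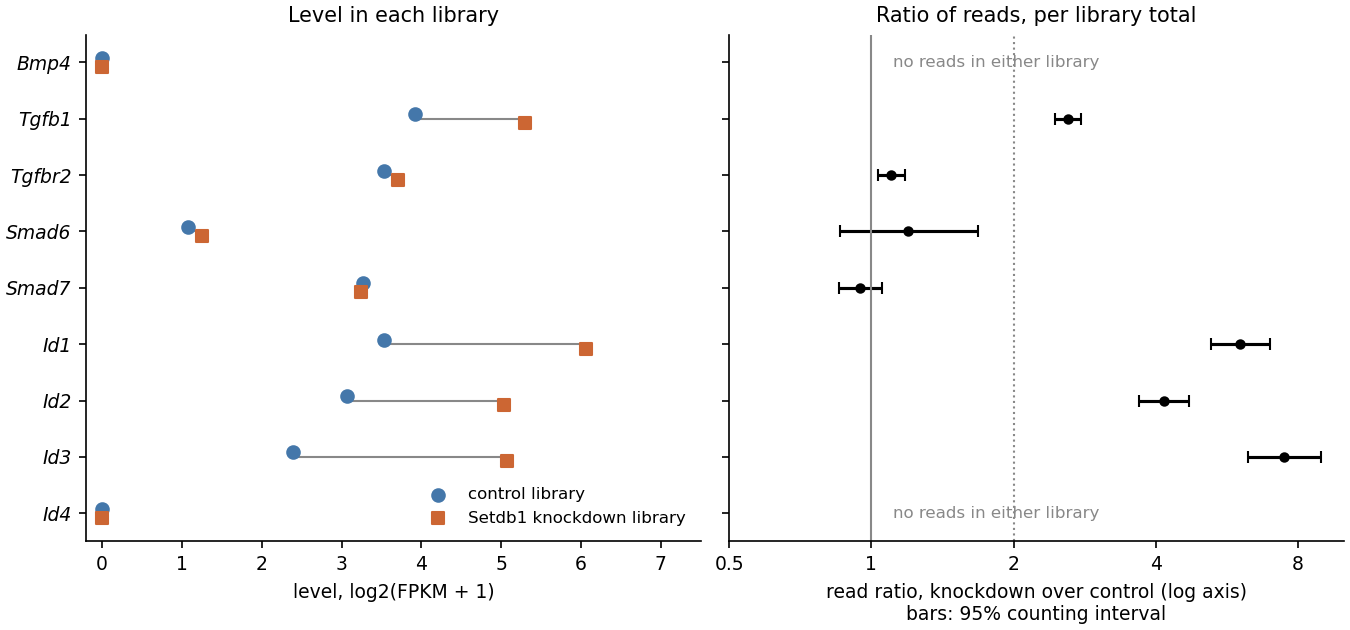
The left panel gives the level of each of the 9 genes as log2(FPKM + 1) in CT26shCtrl (circles) and the Setdb1 knockdown library (squares). The right panel gives the ratio of reads, knockdown over control, on a log axis, with 95% counting intervals as bars, a solid line at 1 and a dotted line at 2. The ratios of Id1, Id2, Id3 and Tgfb1 lie right of the dotted line, those of Tgfbr2, Smad6 and Smad7 near 1, and Id4 and Bmp4 have no reads.

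By level in CT26shCtrl the order was Tgfb1, Id1, Tgfbr2, Smad7, Id2, Id3 and Smad6. Exact Poisson intervals on the FPKM values overlapped for Id1 (9.22 to 12.0) and Tgfbr2 (10.0 to 11.1). The interval of Smad7 (8.04 to 9.31) overlapped those of Id1 and of Id2 (6.63 to 8.23). Overlap of separate intervals does not settle the order of a pair, which was not tested. In CT26shSetdb1 the order was Id1, Tgfb1, Id3, Id2, Tgfbr2, Smad7 and Smad6. There the intervals of Id3 (30.7 to 34.6) and Id2 (30.2 to 33.5) overlapped, and those of the other neighbours did not. Id3 was thus below Tgfbr2 and Smad7 in CT26shCtrl and above both in CT26shSetdb1.

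ID proteins bind E proteins, so the levels of the E protein genes were set beside them. Tcf3, which encodes E2A, was at 39.2 FPKM (2963 reads) in CT26shCtrl and 38.0 FPKM (2875 reads) in CT26shSetdb1. Tcf4 went from 635 to 342 reads, a read ratio of 0.521 (0.455 to 0.595), and Tcf12 from 666 to 315 reads, a read ratio of 0.457 (0.399 to 0.524). None of the 3 passed 2-fold on the log2(FPKM + 1) scale, where the median ratio was -0.43. The summed level of the ID genes was 22.2 FPKM against 42.7 FPKM for the E protein genes in CT26shCtrl, a ratio of 0.519. In CT26shSetdb1 it was 130.2 against 39.8 FPKM, a ratio of 3.28. These ratios across genes depend on the lengths of the gene models. In reads, the sums were 709 against 4264 in CT26shCtrl and 3978 against 3532 in CT26shSetdb1.

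**Figure D3:**
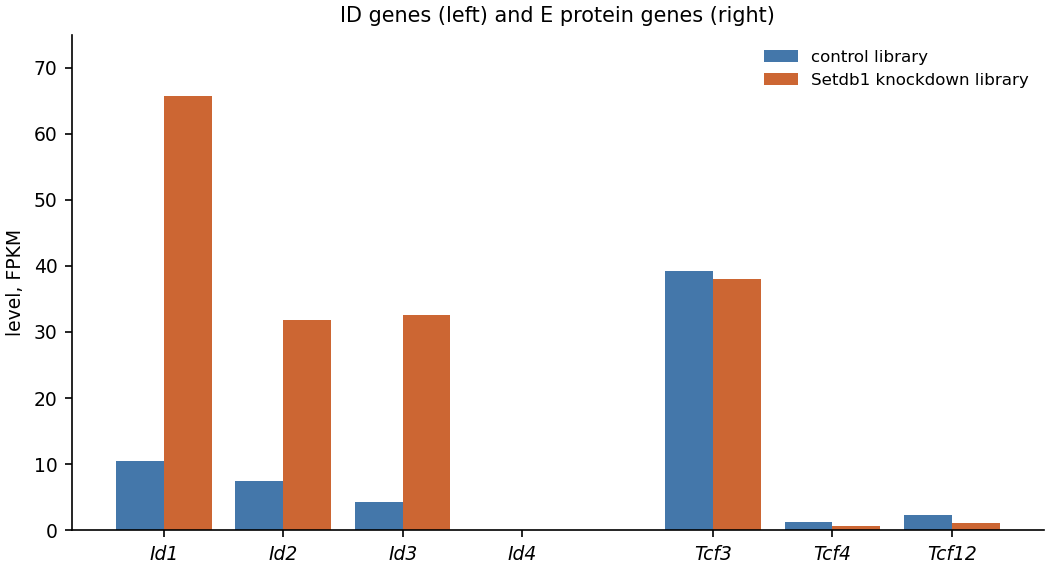
Bars give the level in FPKM of the 4 ID genes and the 3 E protein genes, in CT26shCtrl and in the Setdb1 knockdown library. Id1, Id2 and Id3 are higher in CT26shSetdb1, Id4 is at 0 in both, and Tcf3 differs little, from 39.2 to 38.0 FPKM.

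Most other bHLH genes listed had no reads. Of 27 tissue-restricted bHLH genes, 2 reached 1 FPKM and 20 had 0 reads in both libraries, among them Atoh1, Neurod1 and Myod1. The 2 were Twist1 and Twist2, transcription factor genes of mesenchymal cells, with log2 ratios of 0.63 and 0.51. The authors' annotation places 99 loci in the bHLH family, 30 of which reached 1 FPKM. Id3, Id1 and Id2 had ranks 1, 2 and 3 by ratio among these 30, ahead of Bhlhe40 at 1.88. Without them, 5 of 27 were at least 2-fold higher and 1 was lower by as much, beside 6.81% and 4.85% of all genes. The median of these 27 was 0.15.

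Of 13 genes taken as BMP targets, the ID genes, Smad6 and Smad7 included, 6 reached 1 FPKM. Of these, 4 were at least 2-fold higher and 0 lower, beside 6.81% and 4.85% of all genes. Id1, Id2 and Id3 were among the 4, so nothing is read from that difference. The median log2 ratio of 1.56 rests mostly on genes of the set itself: the 1 other gene at that level was Msx1, a homeobox gene, from 3.19 to 8.29 FPKM (185 and 481 reads) with a log2 ratio of 1.15. Atoh8, Hey1 and Smad9 stayed below 1 FPKM, and Bambi, Msx2 and Dlx5 had 0 reads in both libraries.

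TGF-beta target genes lay on both sides of their control level. Of 19, 18 reached 1 FPKM, 4 were at least 2-fold higher and 2 lower by as much, and the median log2 ratio was -0.02. Bhlhe40, a bHLH repressor gene, Junb, a subunit of AP-1, and Snai1, a repressor of epithelial genes, had log2 ratios of 1.88, 1.71 and 1.19. Snai2, a relative of Snai1, went from 363 to 63 reads (log2 ratio -1.99), and Ctgf, a matricellular protein gene, from 1138 to 494 reads (log2 ratio -1.12). Cdkn1a, the p21 cell cycle inhibitor gene, was at 225 and 211 FPKM. Skil, Ldlrad4 and Tgfbi are also on this list, with read ratios of 0.371, 2.14 and 2.02 (1.40 to 2.95 for Tgfbi). They stayed within 2-fold only on the scale with the added 1. Across all 11 lists, 61 genes outside the set reached 1 FPKM, of which 11 (18.0%) were at least 2-fold higher and 5 (8.20%) were lower by as much, beside 6.81% and 4.85% of all genes. These lists were drawn up with earlier results known, and no test was made of them.

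**Figure D4:**
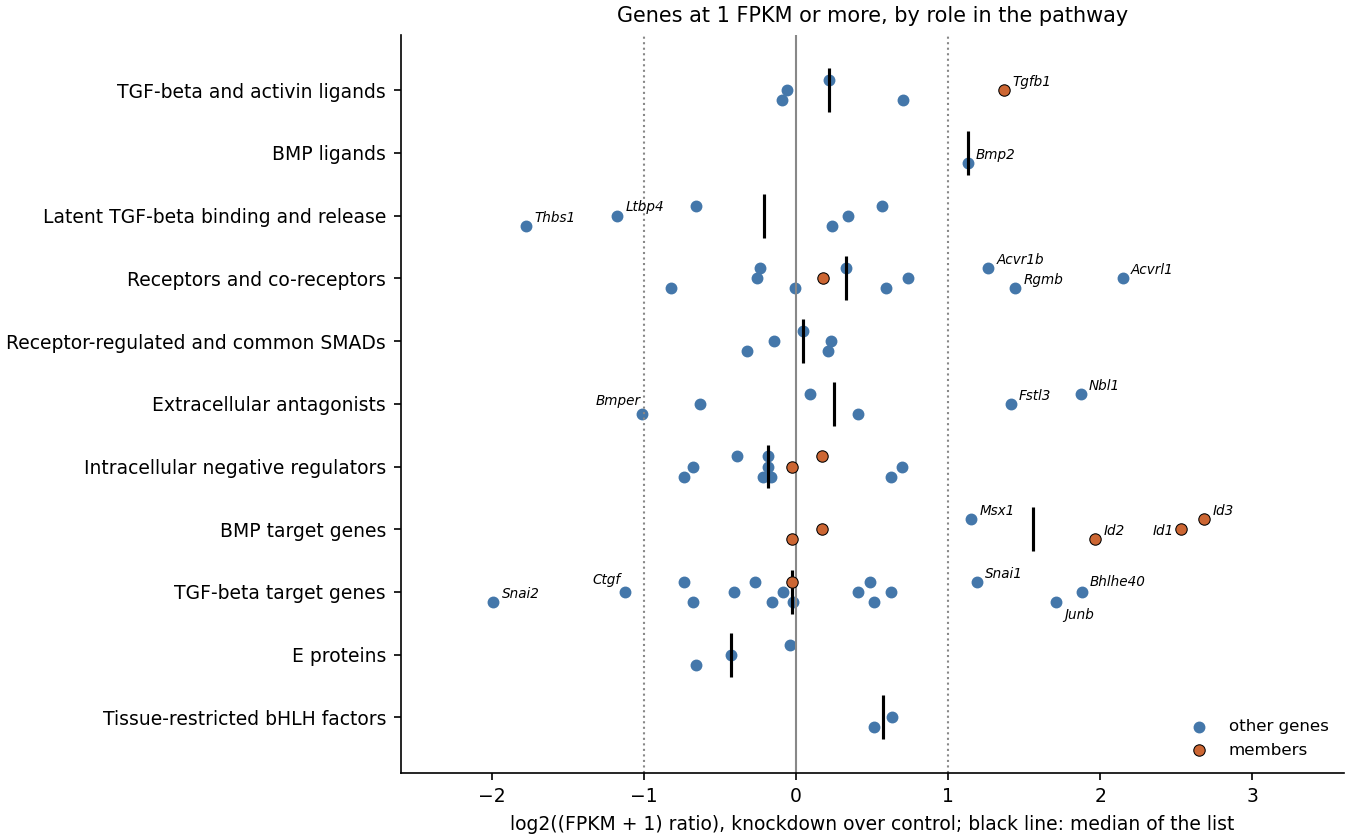
Each point is a gene that reached 1 FPKM in either library, placed by its log2((FPKM + 1) ratio), knockdown over control, in rows by role. Members of the described set are orange, other genes blue, black lines mark list medians and dotted lines 2-fold. The receptor-regulated and common SMADs and the intracellular inhibitors lie within 2-fold, whereas TGF-beta targets spread from Snai2 at -1.99 to Bhlhe40 at 1.88 among the genes drawn. The list medians are those of the whole lists, and 1 TGF-beta target gene is not drawn.

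The promoters were searched for SMAD-binding elements, which the choice of genes did not use. RefSeq promoter windows of 300 bases (GRCm38.p6, 250 before to 50 after the start site) matched 7 of the 9 genes, all but Id1 and Smad7. Searched on both strands were GGCGCC, the GC-rich element of BMP-responsive promoters, CAGAC, a common SMAD element, and GTCTAGAC, the palindromic element. Among all 32851 windows of this length, 11.9% held the first, 49.6% the second and 0.213% the third. The matches are given 5′ to 3′ on the gene's strand, with 10 bases on either side and the match in capitals:
Id2, chr12:25096308-25096333: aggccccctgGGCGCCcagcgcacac
Id3, chr4:136143645-136143669: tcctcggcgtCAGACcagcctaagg
Id3, chr4:136143744-136143768: acccttggcgGTCTGttttgaataa
Id4, chr13:48260958-48260983: cgggttgcccGGCGCCccgccctcgc
Smad6, chr9:64022046-64022073: ccgccaaagtGTCTAGACtggcatatga
Tgfbr2, chr9:116175509-116175533: acttggagccCAGACttggcggggt
The Id2 match starts 231 bases before the RefSeq start site and lies within a longer GENCODE transcript of Id2, outside its exons. Both Id3 matches, 167 and 68 bases before that start, lie in the 5′ UTR of a GENCODE transcript that starts further upstream, and the second is on the opposite strand. The Smad6 palindrome starts 4 bases before the start site and runs across it. The Id4 match lies 148 bases upstream and within transcripts of A330033J07Rik and Gm49291, the genes that overlap Id4. The Tgfbr2 match, 160 bases upstream, lies outside annotated transcripts.

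The windows of Tgfb1 and Bmp4 held none of the 3 motifs. Tgfb1 was the ligand of the set that was higher in CT26shSetdb1, so the 250 bases before its start, on the plus strand, are shown in full, with no capitals because no motif was found:
Tgfb1, chr7:25686752-25687001: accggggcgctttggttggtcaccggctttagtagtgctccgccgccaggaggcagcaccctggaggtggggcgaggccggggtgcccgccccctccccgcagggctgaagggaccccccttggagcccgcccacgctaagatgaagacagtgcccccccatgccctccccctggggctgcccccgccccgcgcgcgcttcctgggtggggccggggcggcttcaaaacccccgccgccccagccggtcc
This stretch is 75.2% G and C. Of the genes with a window, Id2, Id3 and Tgfb1 were at least 2-fold higher. Of these, Id2 held the GC-rich element, Id3 the common SMAD element and Tgfb1 no motif. The palindrome was found in Smad6, whose level did not differ detectably, and the GC-rich element also in Id4, which had no reads. A match is a string of letters and not a shown binding site, and a window without one says nothing of SMAD binding elsewhere.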

How the data were processed

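RNA sequencing libraries of 1 Setdb1 knockdown and 1 control culture of CT26 cells were compared. Per the labels' protocols, the kit was NEBNext Ultra, on TRIzol-extracted RNA. Per the submitters' processing notes, CASAVA, HISAT2, featureCounts 1.5.0-p3 and GRCm38 were used. The strand setting and filters are not given in the sources used here. The authors deposited FPKM values per gene, per the file name. FPKM times gene length gave whole reads for 100% of the values above 0 (tolerance 0.01 of a read), with 1 depth of 18731117 reads shared by both columns. Groups came from the genotype labels, and columns were matched by library name. All 9 genes have the coordinates of GENCODE M21.

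Computed here were log2((FPKM + 1) ratios), a filter of 1 FPKM in at least 1 library, a 2-fold threshold, and exact binomial and Poisson 95% intervals on recovered reads. With 1 library per group there is no p-value. The 9 members, 11 pathway lists, 4 marker lists and 3 motifs were chosen with earlier results of these data known. Named are the members, Setdb1, and of each list the genes past 2-fold and the highest and lowest, except that some genes of the lists are not reported here. Other named genes were picked after their values were seen: markers, list members at 0 reads or near 1 FPKM, Tgfb2, Tgfb3, Gdf11, Tgfbr1, Acvr2b, Skil, Ldlrad4, Tgfbi, Cdkn1a, Gm6175 and neighbouring genes. Protein sequences were not analysed here. The calculations were tested on simulated data. Software was scipy 1.17.1, pandas 2.3.3, numpy 2.4.6 and matplotlib 3.10.9 under Python 3.11.15.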

Additional observations from a re-analysis of the deposited data

How the results depend on the processing

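All alternatives but 1 were fixed with the design. The added one, chosen after seeing the data, gave Id2 the reads of Gm6175. Its ratio stayed at 1.97, which was fixed in advance because Gm6175 had 0 reads. Of 37 alternative log2 ratios of the 9 genes, 36 stayed within counting error and 1 moved: Id3 was at 2.92 with a pseudocount of 0.1. The 36 include all values of Id4 and Bmp4, which had 0 reads and could only stay at 0. The scalings were also small, dividing the knockdown library by 0.998 to 1.04. Across scaling by own read totals, the median ratio and the upper quartile, Id1 ran from 2.47 to 2.54, Id2 from 1.91 to 1.97, Id3 from 2.62 to 2.69, Tgfb1 from 1.31 to 1.37, Tgfbr2 from 0.12 to 0.18, Smad6 from 0.14 to 0.17 and Smad7 from -0.08 to -0.02, so no gene of the set changed sign. A 4-fold threshold left 2 of the 9 genes higher, beside 1.09% of all 10671 genes. Id2 fell just below it on the scale with the added 1, while its read ratio was 4.16 (3.69 to 4.70).

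Over all genes, 1134 were higher and 870 lower with a pseudocount of 0.1, the 1.5-fold threshold gave 1804 and 1523, and the 4-fold threshold 116 and 56. With a pseudocount of 0.1, the median was 1.79 for BMP ligands, which is the value of Bmp2 alone, and -0.80 for E proteins. Without a filter on low values, it was 0 for TGF-beta and activin ligands, BMP ligands and tissue-restricted bHLH factors, -0.0035 for latent TGF-beta binding and release, 0.11 for receptors, 0.0455 for extracellular antagonists and 0.0873 for BMP targets, because genes with few or no reads enter. With the filter at 5 FPKM, it was -0.66 for latent TGF-beta binding and release, 0.93 for receptors, 1.97 for BMP targets and -0.0424 for E proteins, because fewer genes are left. Of the E protein genes only Tcf3 was left. No paired analysis was possible because only 1 library stood in either group, and no library could be left out. Depth limits Smad6, with 67 and 83 reads.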

Other observations

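The neighbours of the set were read from the table by position, a choice made after the values were seen. Within 50 kb of Id1, Id2, Id3 or Tgfb1, 10 genes reached 1 FPKM. Of these, 1 was at least 2-fold higher in CT26shSetdb1 and 1 lower by as much, beside 6.81% and 4.85% of all genes. The higher gene was E2f2, which encodes a cell cycle transcription factor and lies 26639 bases from Id3, with 128 reads in CT26shCtrl and 781 in CT26shSetdb1 (log2 ratio 1.99). The lower gene was Exosc5, which encodes an RNA exosome subunit and lies 15634 bases from Tgfb1, with 2064 and 929 reads (log2 ratio -1.06). Bcl2l1 and H13, on either side of Id1, had log2 ratios of -0.45 and -0.44, and Kidins220, beside Id2, had 0.26. B9d2, which ends 444 bases before Tgfb1 starts, had 532 reads in CT26shCtrl and 469 in CT26shSetdb1 (log2 ratio -0.17). Near Smad6, Smad7 and Tgfbr2, 4 genes reached 1 FPKM and none passed 2-fold in either direction.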
